A study of Mus musculus with 12 samples.

Results

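Open chromatin was examined around 9 genes of the formative and primed epiblast, namely Fgf5, Otx2, Dnmt3a, Dnmt3b, Pou3f1, Zic2, Sox3, Sall2 and Foxd3. Members were the ATAC-seq summits that lay inside 1 of these genes, or whose nearest end of a protein-coding gene, within 100 kb, belonged to 1 of them. ATAC-seq marks accessible DNA by insertion of the Tn5 transposase, and a summit is the highest point of a called peak. Merged over 12 libraries at 250 bp, the members formed 93 of 104822 regions, near 9 of 21631 protein-coding genes. At the limit of the rule, the farthest regions inside lay 86575 bp from Otx2 and 94409 bp from Foxd3, and the nearest outside lay 118734 bp from Sox3 and 171549 bp from Pou3f1.

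The libraries came from mouse embryoid bodies, aggregates of differentiating embryonic stem cells, grown under mesodermal conditions and collected at days 3, 5 and 10. Each of the 6 groups had 2 libraries: Foxk1 knockout (KO) at all 3 days, the line iHA-Foxk1 (genotype label iFoxk1_ND) at days 3 and 5, and a group named Control at day 10. Both of the latter are called control here, each for its own days. All 12 libraries carried the label NoDox. Stem cells of every group had been kept with LIF over a layer of irradiated fibroblasts, and a plating step took these feeders out before differentiation. The number of clones behind each line and the origin of the 2 libraries of a group were not given in the sources used here, so the spread between them may be technical. Peak names inside both KO lists of day 5 read D7, against the label of day 5, and each comparison with these libraries carries that doubt. Peak names of day 10 lack the duplicate-removal tag of the earlier days, so that day 10 and a change of processing cannot be told apart.

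Pluripotent cells pass from a naive state, which resembles the epiblast before implantation, through a formative state to a primed state, from which the germ layers arise. OTX2 and POU3F1 join OCT4 at new enhancers in the course of it, FGF5 becomes a marker of the epiblast after implantation, and the DNMT3 enzymes methylate the genome anew. In embryoid bodies these genes mark the stage that comes before mesoderm, while several of the factors are used again in neural tissue.

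To show what kind of DNA the regions at gene starts covered, the 250 bases before a RefSeq start (GRCm38.p6, the assembly of mm10) are given for 5 windows that a region of at least 2 libraries touched, and for the outer start of Sall2, which none touched. Of the 9 genes, 6 had 12 such windows. The motifs searched on both strands were GTAAACA (forkhead), GGATTA (OTX), ATGCAAAT (octamer), ACAAAG or ACAATG (SOX) and CAGCNGG (ZIC). Capitals mark matches, of which these 6 windows held only SOX ones.
Fgf5, chr5:98253934-98254183, plus strand: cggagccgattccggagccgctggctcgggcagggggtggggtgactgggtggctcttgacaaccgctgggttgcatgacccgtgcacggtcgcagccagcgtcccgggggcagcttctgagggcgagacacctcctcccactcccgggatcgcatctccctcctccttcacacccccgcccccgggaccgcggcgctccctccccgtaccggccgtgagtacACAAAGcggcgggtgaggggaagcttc
Dnmt3b, chr2:153649199-153649448, plus strand: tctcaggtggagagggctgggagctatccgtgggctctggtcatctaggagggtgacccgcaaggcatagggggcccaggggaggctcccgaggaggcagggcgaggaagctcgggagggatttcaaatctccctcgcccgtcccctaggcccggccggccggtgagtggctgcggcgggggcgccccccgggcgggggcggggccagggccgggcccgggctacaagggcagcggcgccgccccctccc
Dnmt3a inner start, chr12:3891494-3891743, plus strand: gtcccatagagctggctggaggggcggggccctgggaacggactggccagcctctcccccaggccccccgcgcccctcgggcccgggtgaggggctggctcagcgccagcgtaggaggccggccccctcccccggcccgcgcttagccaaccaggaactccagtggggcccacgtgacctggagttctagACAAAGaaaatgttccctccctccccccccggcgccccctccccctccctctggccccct
Foxd3, chr4:99656049-99656298, plus strand: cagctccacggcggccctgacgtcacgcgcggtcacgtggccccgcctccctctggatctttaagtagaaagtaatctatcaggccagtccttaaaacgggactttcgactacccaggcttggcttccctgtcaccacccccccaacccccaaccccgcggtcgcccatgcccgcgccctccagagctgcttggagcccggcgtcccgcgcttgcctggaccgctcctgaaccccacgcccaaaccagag
Sall2 inner start, chr14:52316324-52316573, minus strand: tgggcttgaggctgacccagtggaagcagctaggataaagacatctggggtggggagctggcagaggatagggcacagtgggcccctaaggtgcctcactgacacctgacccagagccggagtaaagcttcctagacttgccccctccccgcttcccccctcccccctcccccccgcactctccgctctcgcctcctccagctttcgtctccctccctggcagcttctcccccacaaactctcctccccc
Sall2 outer start, chr14:52328671-52328920, minus strand: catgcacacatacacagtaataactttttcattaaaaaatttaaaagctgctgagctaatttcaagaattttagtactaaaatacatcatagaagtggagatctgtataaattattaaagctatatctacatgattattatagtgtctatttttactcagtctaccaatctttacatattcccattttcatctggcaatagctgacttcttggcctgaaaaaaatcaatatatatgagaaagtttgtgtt

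The 5 windows touched by a region were rich in G and C, with 70.8% in Fgf5, 75.2% in Dnmt3b, 73.6% at the inner start of Dnmt3a, 65.6% in Foxd3 and 64.4% at the inner start of Sall2. The outer start of Sall2 held 28.0%, and the median of all 32619 windows was 52.4%. Also untouched by a region of at least 2 libraries were the Otx2 windows (42.0% to 53.6%) and the other Dnmt3a windows (82.4% and 80.8%). A high share of G and C was thus not limited to touched windows. A SOX match stood 27 bases before the start of Fgf5 and 60 bases before the inner start of Dnmt3a. Over the 12 windows, 2 held a SOX match, 1 a ZIC match (Dnmt3a) and 1 an OTX match (Otx2 itself), and 0 a forkhead or octamer match. Of all windows 24.9% held SOX, 21.5% ZIC, 6.22% OTX, 3.19% forkhead and 1.61% octamer letters. A match describes letters and does not show a bound site.

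Lists at day 3 held 53456 to 59006 summits on chromosomes 1 to 19 and X, those of day 5 held 42129 and 48391 in the KO but 14519 and 34040 in the control, and those of day 10 held 4028 to 10548. The files carry no read counts, so the sequencing depth behind a value is unknown and a longer list can hold a region that a shorter one omits. Near the 9 genes there were 51 and 48 control and 49 and 52 KO summits at day 3. At day 5 there were 6 and 29 in the control (replicates 1 and 2) and 45 and 40 in the KO. Per 10000 summits of the same list these were 9.54 and 8.87 (control) and 8.30 and 9.73 (KO) at day 3, and 4.13, 8.52, 9.30 and 9.49 at day 5. Control replicate 1 of day 5 stood apart from the other 7 libraries of these days in list length and in its full-list share. Its share did not stand apart among the 14519 best summits of each day 5 list. Control values there were 4.13 and 5.51 per 10000, and KO values 4.82 and 3.44. At day 10, 1 summit in each Control library and 0 in both KO libraries belonged to these genes, so nothing about the KO can be read from that day.

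**Figure D1:**
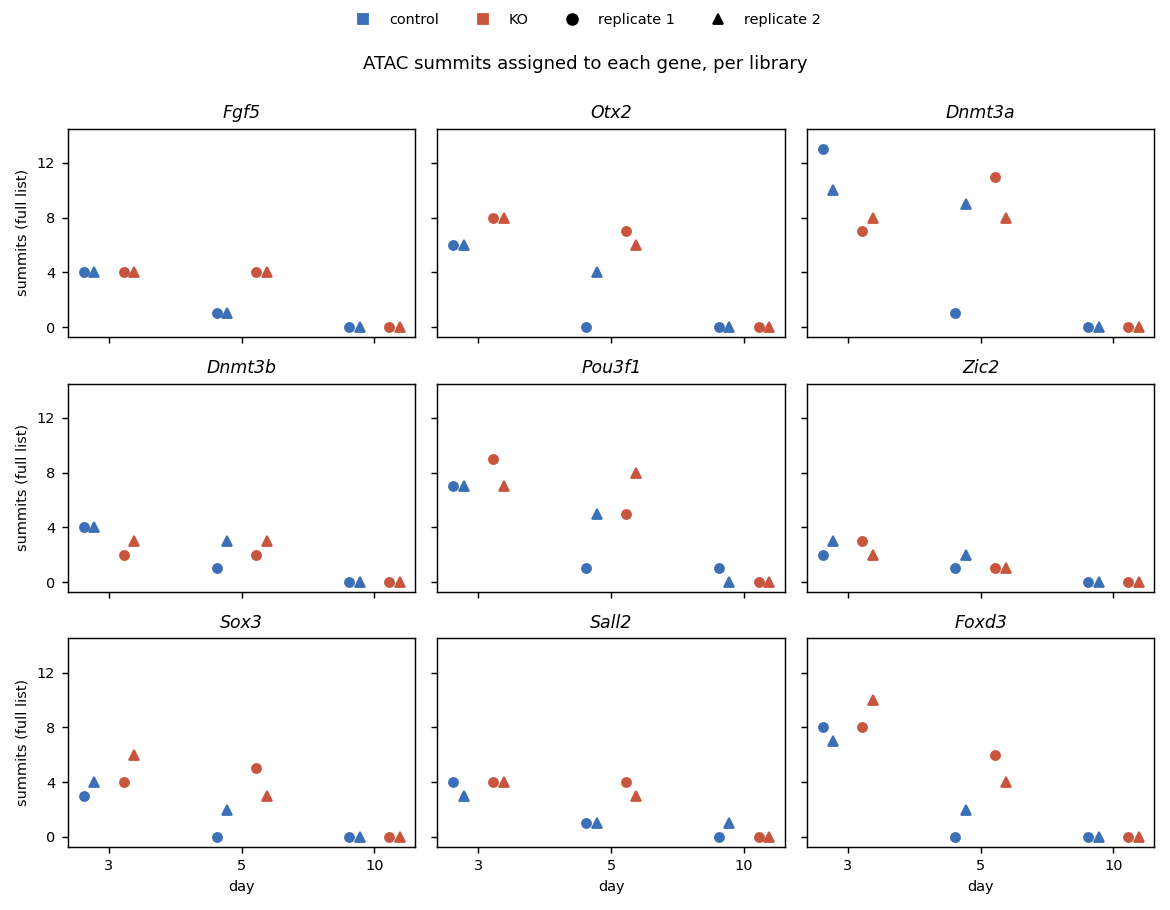
Number of summits assigned to each gene (vertical axis, full lists) by day, with control libraries in blue and KO libraries in red, 1 point per library. Fgf5 has 4 summits in all 4 libraries of day 3 and in both KO libraries of day 5, and 1 in each control library of day 5, whose lists are shorter.

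Fgf5, a secreted growth factor and the usual marker of the primed epiblast (gene 14176, chr5:98254184-98277033, plus strand), had 4 regions, each with a summit in all 4 libraries of day 3 and in both KO libraries of day 5. In the control at day 5 only the region at the gene's start had a summit, and at day 10 no library had one. The start region (chr5:98254055-98254459) had a summit in all 8 libraries of days 3 and 5. In control replicate 1 of day 5 it stood near the very end of the list, at 99.9% from the top.

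The region 1731 bp inside Fgf5 (chr5:98255915-98256044) was among the best-scoring ones of day 3. Its summits stood at 10.0% and 8.13% from the top of the control lists and at 9.63% and 5.50% in the KO. At day 5 it stood at 29.9% and 27.4% in the KO, and neither control list held a summit there at any score. In bulk libraries, fewer cells with an open region and less opening per cell cannot be told apart. Beyond the upper end of the gene, the region 6857 bp away (chr5:98283890-98284169) stood at 16.8% and 28.6% in the control and 22.2% and 37.2% in the KO at day 3, and at 66.5% and 61.7% in the KO at day 5. The region 16164 bp beyond that end (chr5:98293197-98293507) stood at 51.6%, 50.4%, 32.2% and 37.1% at day 3 in the same order, and at 43.0% and 54.1% in the KO at day 5. Both were missing from both control lists of day 5. Places in lists of different length describe each list and do not measure a change between them.

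**Figure D2:**
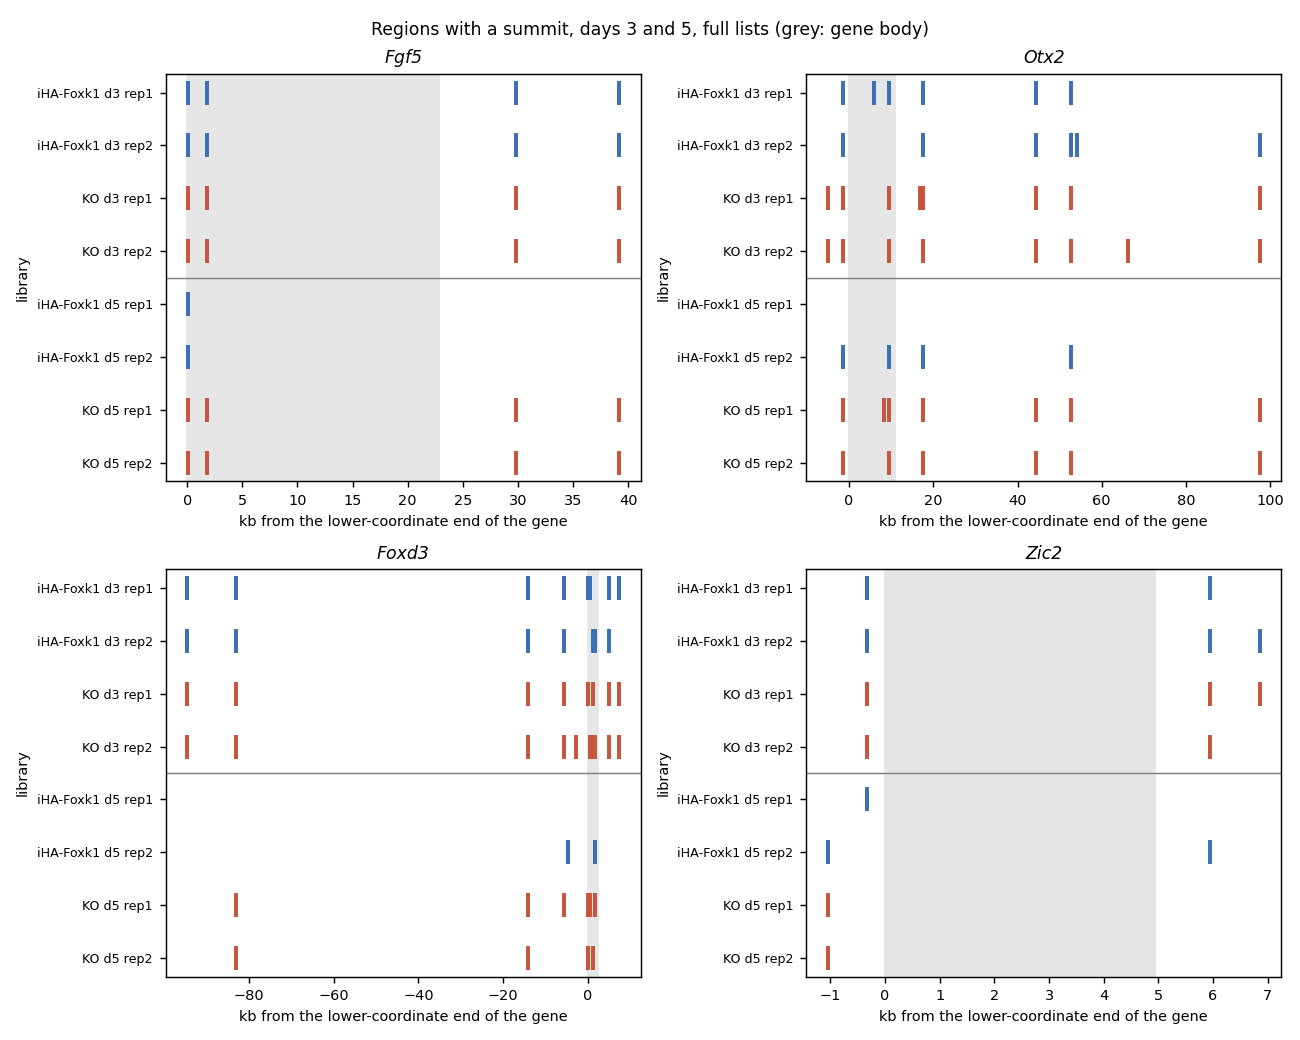
Regions with a summit (ticks) around 4 of the genes in the 8 libraries of days 3 and 5, by distance in kb from the lower-coordinate end of the gene, with the gene body in grey and full lists used. Ticks of Fgf5 are the same in all libraries but the 2 control ones of day 5, and the tick before Zic2 lies farther out in 3 libraries of day 5.

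Otx2, a homeodomain factor of the step out of the naive state (gene 18424, chr14:48656781-48667644, minus strand), had 12 regions, 5 of them in 1 library only. Those found most widely lay outside the gene. The region 41886 bp upstream (chr14:48709530-48709606) had a summit in 7 libraries, at 36.5% to 45.3% from the top in all 4 of day 3, at 37.9% and 44.2% in the KO at day 5 and at 81.3% in control replicate 2. Its neighbour 33358 bp upstream (chr14:48701002-48701179) had one in all 4 libraries of day 3 (44.2% and 51.1% in the control, 36.9% and 31.3% in the KO) and in both KO libraries of day 5 (43.9% and 35.8%). No control list of day 5 held it. A region 4964 bp beyond the lower end (chr14:48651624-48651817) was found in the 2 KO libraries of day 3 alone.

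Foxd3, a forkhead repressor of the epiblast and neural crest (gene 15221, chr4:99656299-99658671, plus strand), had 12 regions. Regions 82978 bp (chr4:99573083-99573321) and 13987 bp upstream (chr4:99642026-99642312) had a summit in all 4 libraries of day 3 and both KO libraries of day 5, and in neither control library of day 5. For the nearer one the control summits of day 3 stood low, at 97.9% and 84.1%, against 35% and 49.6% in the KO. The farthest region (94409 bp, chr4:99561664-99561890) showed the reverse order at day 3, with 22.2% and 25.3% in the control and 59.6% and 57.0% in the KO, and no list of day 5 held it. The start of the gene (chr4:99656042-99656287) had a summit in 4 libraries, at 73.9% to 96.1% from the top.

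Pou3f1, the POU factor also called Oct6 (gene 18991, chr4:124657646-124660655), had a region at its lower end (chr4:124657312-124657592) in all 8 libraries of days 3 and 5 and in Control replicate 1 of day 10. It stood at 20.8% and 45.5% in the control and 21.9% and 30% in the KO at day 3. The day 5 values were 78.8% and 37.4% in the control and 20% and 22.1% in the KO. Of its 14 regions, 12 lay outside the gene and more than 1 kb from its ends. The one 17752 bp below the gene (chr4:124639850-124639894) was found in both KO libraries of day 3 alone.

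Zic2, a zinc-finger factor of the epiblast and forebrain (gene 22772, chr14:122475384-122480328), had its summit at different places on days 3 and 5. All 4 libraries of day 3 had one 189 bp below the gene (chr14:122474927-122475195), at 13.8% and 10.8% in the control and 12.1% and 7.16% in the KO. Both KO libraries and control replicate 2 of day 5 had one 1042 bp below the gene instead (chr14:122474335-122474342), at 21.2%, 22.7% and 28.4%. Control replicate 1 of day 5 had its summit at the nearer position, at 82.1%. The region 958 bp beyond the upper end (chr14:122481286-122481382) was in all 4 libraries of day 3 and control replicate 2 of day 5, and in no KO library of day 5.

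Sox3, an X-linked SOX factor of epiblast and neural progenitors (gene 20675, chrX:60891366-60893430), had 10 regions, none in more than 5 libraries. The only one in all 4 libraries of day 3 lay 59934 bp below the gene (chrX:60831341-60831432), at 68.1% and 74.4% in the control and at 92.2% and 99.0% in the KO. The region at its upper end (chrX:60893416-60893620) was in both control libraries and KO replicate 1 at day 3 and in both KO libraries of day 5. Each arm had a distal region of its own at day 3, 22731 bp away in the KO (chrX:60868574-60868635) and 39935 bp away in the control (chrX:60933365-60933391), at 69.3% to 92.8% and at 73.2% to 90.6% from the top.

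Sall2, a spalt-type zinc-finger factor (gene 50524, chr14:52311177-52328670, minus strand), had its most widely found region at the inner start. It (chr14:52315893-52316676) had a summit in all 8 libraries of days 3 and 5, at 19.6% to 41.0% from the top, and in Control replicate 2 of day 10 at 86.1%. Its summits were spread out, and at day 3 alone they split into a control-only (chr14:52315893-52316140) and a KO-only (chr14:52316486-52316676) region, so that both calls lie within the same stretch. A region 2571 bp inside the outer start (chr14:52326066-52326099) was in all 4 libraries of day 3 and in none of day 5.

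Dnmt3a and Dnmt3b encode the de novo DNA methyltransferases. Dnmt3a (gene 13435, chr12:3801559-3914443, plus strand) had 24 regions, 21 inside the gene, and 12 of the 24 came from 1 library. A region 4850 bp inside its lower end (chr12:3806409-3806439) stood at 15.4% to 25.3% in the 4 libraries of day 3. At day 5 it stood at 26.6% and 27.0% in the KO and at 32.9% in control replicate 2. The region at the inner start (chr12:3891497-3891545) was in the same 7 libraries, and one 26582 bp inside the upper end (chr12:3887664-3887861) was in all 8, at 46.3% to 76.6%. A region 29029 bp inside that end (chr12:3885173-3885414) stood at 34.8% and 50.8% in the control and at 96.4% and 81.1% in the KO at day 3. Dnmt3b (gene 13436, chr2:153649411-153687730, plus strand) had its main region at the start (chr2:153649342-153649724), in all 8 libraries of days 3 and 5, at 19.2% to 35.9% in 7 of them and at 58.0% in control replicate 1 of day 5. A second one 6056 bp upstream (chr2:153643188-153643355) was in all 4 libraries of day 3 and both KO libraries of day 5, and in neither control library of day 5.

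**Figure D3:**
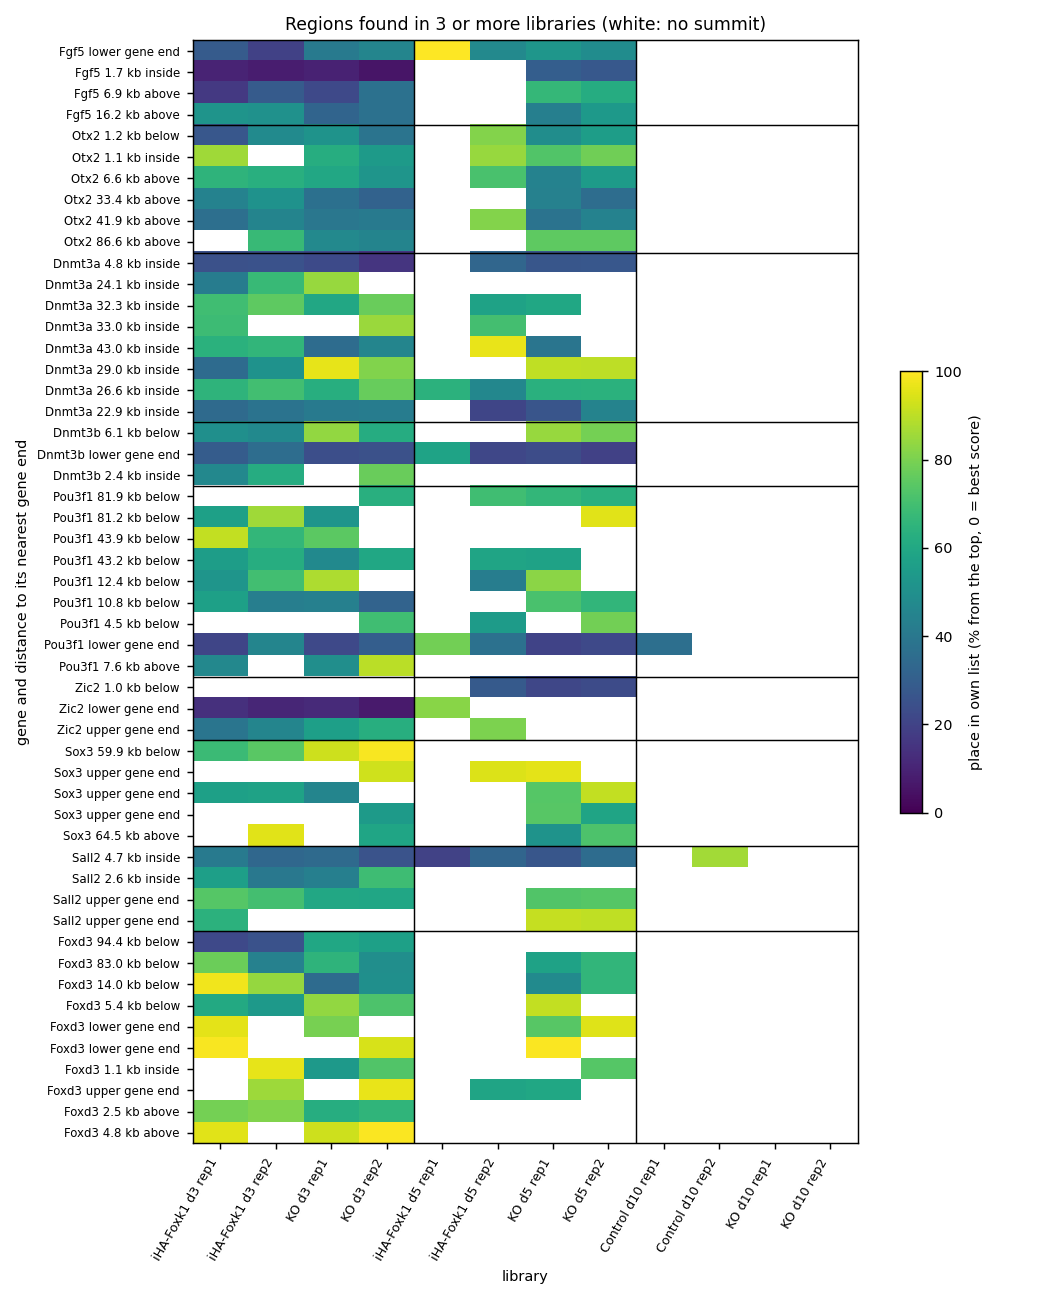
The 52 regions found in at least 3 libraries (rows, named by gene and distance in kb to its nearest end) in each of the 12 libraries (columns). Colour gives the place of the summit in its own list, from 0% (best score) to 100%, and white means no summit. Column iHA-Foxk1 d5 rep1, the shortest list of days 3 and 5, is nearly empty, and day 10 holds 2 summits in all.

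To compare arms, each list was reduced to the N best-scoring summits, N being the shortest list compared, and a region was called KO-only where each KO list and no control list held a summit, and control-only in the reverse case. Regions in both libraries of at least 1 arm were the background. At day 3 (N = 53456) 48 regions lay near the 9 genes, of which 5 were KO-only and 3 control-only. That is 10.4% KO-only against 9.77% of all 52273 regions, and 6.25% control-only against 9.57%, both close to the background. KO-only regions lay near Sall2 (2), Otx2, Pou3f1 and Sox3, and control-only ones near Dnmt3a, Sall2 and Sox3. No summit of the other arm, at any score, lay within 1 kb of 3 of the 5 and 1 of the 3. Merging at 100 bp gave 2 KO-only regions (Pou3f1 and Sox3), both among the 5, and 3 control-only regions, of which 1 (Sox3) was among the 3. Halving N gave 3 of each kind, of which only the Sall2 region was among the main calls in either direction.

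At day 5 the short list of control replicate 1 set N to 14519, which left 6 regions near these genes. The region 1731 bp inside Fgf5 was the 1 KO-only region (16.7% against 12.1% of all 14273 regions), and 0 were control-only (against 7.97%). Its ranks in the KO were 14477 and 11530, the former just within N, and its summits in these libraries lay more than 100 bp apart, so that halving N or merging at 100 bp ended the call. No control list held a summit within 1 kb of it. Without control replicate 1, N was 34040 and 7 of 35 regions were KO-only (3 near Fgf5, 2 near Foxd3 and 1 each near Otx2 and Sox3). That is 20% against 19.9% of all 42502 regions, so the share near these genes was that of the genome. With a single control library, 11 of 35 were control-only (31.4% against 27.6%). In whole lists 18 of 30 regions were KO-only, where 36.9% of all regions were, and 0 were control-only, with the KO lists the longer ones. At day 10 no region of these genes was in both libraries of an arm, where 9.88% and 11.8% of all regions were KO-only and control-only.

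To see which regions of day 3 had a summit at day 5, the regions in all 4 libraries of day 3 were followed at N = 34040, without control replicate 1 of day 5. This step was added after seeing the data. Of 16 such regions near the 9 genes, 8 (50.0%) had a summit in both KO libraries and in the control, against 65.3% of all 23230 regions. Another 4 (25.0% against 20.5%) had one in both KO libraries alone: the 3 Fgf5 regions away from its start and the Otx2 region 33358 bp upstream. The Zic2 region beyond the upper end was found in the control alone (6.25% against 0.943%), and the one 189 bp below Zic2 in neither arm (6.25% against 5.36%). The remaining 2, near Pou3f1, were in 1 of the 2 KO libraries. The control of day 5 was a single library here. Among the 372 genes with exactly 4 such regions of day 3, 22 (5.91%), Fgf5 among them, had 3 or more in the KO alone at day 5. In full lists of all 8 libraries, 31 regions were followed, of which 5 (16.1% against 31.2%) were in all 4 libraries of day 5, 11 (35.5% against 24.4%) were in both KO libraries and no control library, and 0 (against 0.116%) the reverse.

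**Figure D4:**
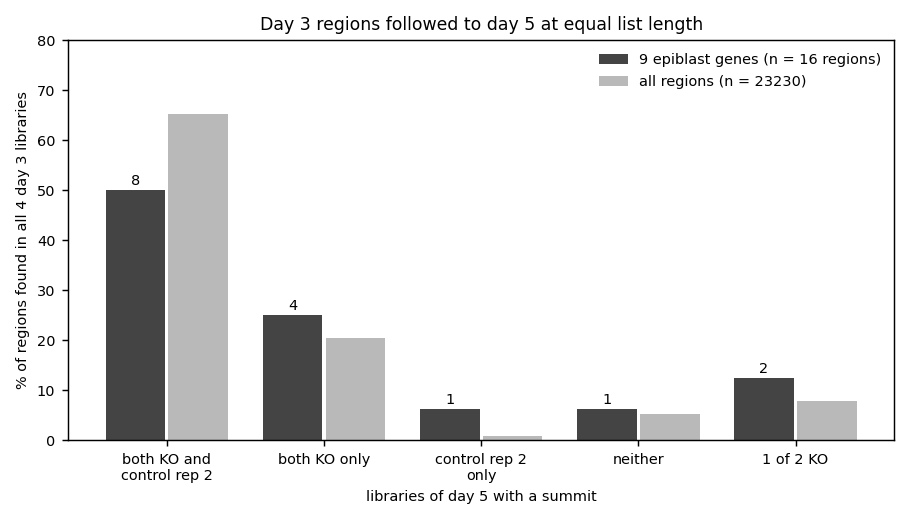
Share of regions found in all 4 libraries of day 3 (vertical axis, %) by the libraries of day 5 that held them, at N = 34040 and without control replicate 1 of day 5. Dark bars are the 16 regions of the 9 genes, with their number above, and light bars all 23230 regions. The dark bars stand at 8 regions for both arms and 4 for the KO alone.

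Days 3 and 5 were compared within each arm by the same rule. In the KO (N = 42129), 7 of 38 regions were day 3-only (18.4% against 10.8% of all 41699 regions) and 2 were day 5-only (5.26% against 8.59%). Day 3-only regions were 2 near Zic2, 2 near Foxd3 and 1 each near Otx2, Pou3f1 and Sall2. The Zic2 region 189 bp below the gene ranked 7143 and 3828 at day 3. Both KO libraries of day 5 had instead the summit 1042 bp below the gene, at ranks 10283 and 9570, which was 1 of the 2 day 5-only regions. The second was at the start of Foxd3. In the control (N = 14519), 2 of 7 regions were day 3-only (28.6% against 22.5% of all 15158 regions), 1 inside Fgf5 at ranks 5370 and 4398 and 1 far upstream of Foxd3 at ranks 11863 and 13701. Another 2 were day 5-only (28.6% against 13.4%), at the start of Dnmt3b and the inner start of Sall2, and both places held summits at day 3 in the full lists. Without control replicate 1 of day 5 (N = 34040), 14 of 43 were day 3-only (32.6% against 24.5%) and 19 day 5-only (44.2% against 31.1%). A day 5-only call then needed a summit in 1 library, but a day 3-only call in 2, so these counts cannot be set against each other.

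The number of summits per gene was tested for KO against control over all 12 libraries, by a two-sided exact permutation of the arm within days at equal N (smallest possible p 0.00926), with Benjamini-Hochberg adjustment over 18852 genes. No member passed, with an adjusted p of 1 for each, but most had no room to pass. At equal N, 8 of the 9 members had 0 summits in all 4 libraries of day 10. Otx2, Sox3 and Foxd3 had 0 at day 5 as well. Such days add nothing to a difference, so these members could not reach the smallest p. The adjustment would also have needed many genes at that p at once, so nothing is concluded from members not passing. Averaged over days, KO minus control was -1.5 summits for Dnmt3a (exact p = 0.278), -0.667 for Dnmt3b (exact p = 0.167) and 0.5 for Otx2, and 0 for Pou3f1, Zic2 and Sall2. Leaving out control replicate 1 of day 5 also raised N at day 5 from 14519 to 34040. The difference was then -2.83 for Dnmt3a, -1 for Dnmt3b and 1 for Otx2 and for Fgf5 (0.167 with that library). In the test over all 12 libraries no gene of the genome passed, and 47 (0.249%) had an unadjusted p under 0.05. At day 3 alone, Dnmt3a had 13 and 10 summits in the control against 6 and 8 in the KO, and Dnmt3b 4 and 4 against 2 and 3, so that KO values lay below without overlap. These are 2 of 9 genes, and 8.93% of all 18698 genes did the same. Otx2, with 6 and 6 in the control and 7 and 8 in the KO, was the 1 gene of 9 above without overlap, as were 9.51% of all genes. At day 5, 0 of the 6 members with a summit at equal N had the KO above or below without overlap (5.88% and 6.87% of all genes), and at day 10, 0 of 1 (5.24% and 7.86%).

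The same test of day 3 against day 5 within arms could not reach 0.05 (36 arrangements, smallest possible p 0.0556, 14995 genes), so its values are given as a description. Fgf5 had 1.00 more summit at day 3 (exact p = 0.167, adjusted p = 0.974) and Foxd3 0.5 more, the unadjusted p of each member being at least that of Fgf5. Sox3 had no summit among the 14519 best of any of the 8 libraries.

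Genes of the same stage were set beside the 9 as a list of 22 (among them Nodal, Etv4, Etv5, Cdh2 and Lefty2). At day 3 their regions were KO-only in 8 of 93 (8.60%) and control-only in 4 of 93 (4.30%). All regions gave 9.77% and 9.57%. At day 5 these were 2 of 19 (Etv4 and Lefty2) and 2 of 19 (Cdh2 and Lin28a), or 10.5% each, against 12.1% and 7.97% of all regions. For 12 genes of the naive state, 10 of 54 (18.5%) were KO-only and 8 of 54 (14.8%) control-only at day 3, both above the shares for all regions. For 10 neural genes the counts were 5 (7.81%) and 4 (6.25%) of 64, both below those shares.

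Genes listed as markers of fibroblasts, the cell type of the feeders, had more summits in the control than in the KO at day 5. Their summits do not tell feeder cells from other cells in which these genes are open. At equal N the 10 markers held 12 and 9 summits in the control and 3 and 2 in the KO (8.27, 6.20, 2.07 and 1.38 per 10000), with Col3a1, Postn and Fap at 0 in all 4 libraries. At day 3 they held 22 and 27 in the control and 29 and 29 in the KO, and at day 10 all 10 were at 0. Their part in the day 5 results for Fgf5 and the other genes was not tested.

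The genes whose spread of summits over the 8 libraries of days 3 and 5 was most like that of the 9 genes together, among 451 genes with at least 20 summits at equal N, were Snap25 (summed distance of shares 0.102) and Fos and Snx5 (0.108 each), where the median was 0.299. The 9 genes together had 49 summits there, with 10.2% to 16.3% of them in each library. The likeness was thus one of a nearly even spread.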

How the data were processed

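ATAC-seq summit lists of 12 libraries were used. Alignment used Bowtie2 2.2.4 to mm10 and peaks were called with MACS2, per the submitters' processing notes; each library had its own list. The score of each summit is a −log10 p- or q-value deposited by the authors, with no statement of which, and it served only to rank summits within a list. Summits on chromosomes 1 to 19 and X were kept (0.144% to 0.896% left out), assigned to the nearest gene end (RefSeq GRCm38.p6, within 100 kb) and merged at 250 bp with Python 3.11.15, numpy 2.4.6 and pandas 2.3.3. A gene's lower and upper end are its lowest and highest coordinate. A Zic2 region that crosses the midpoint to the neighbouring gene Pcca counts as Zic2's in the comparisons. A Sall2 region that crosses to its neighbour (chr14:52338824-52338986) likewise counts as Sall2's. Groups came from the labels. Every called region, and the region nearest each gene's ends, was eligible to be named. Alternatives were halved N, all summits, merging at 100 or 500 bp, a limit of 50 kb, absence in full lists, each library left out and a replicate block. The scripts were tested on simulated data. The genes and lists were chosen with earlier results of these data known.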

Additional observations from a re-analysis of the deposited data

How the results depend on the processing

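Halving N gave 3 KO-only regions at day 3 (1 of the main 5), 0 at day 5, 1 day 3-only and 0 day 5-only in the control and 2 day 3-only in the KO. Merging at 100 bp gave 2 KO-only at day 3, 0 KO-only and 1 control-only at day 5, and 1 day 5-only in the control. Using all summits gave 18 KO-only at day 5, 22 day 3-only and 0 day 5-only in the control, and 12 and 4 in the KO. Absence judged in full lists gave 0 day 5-only in the control and 1 in the KO, and a 50 kb limit gave 1 day 3-only in the control. Requiring no summit within 1 kb, a rule added after seeing the data, gave 3 KO-only and 1 control-only at day 3 and 0 day 5-only in each arm. Leaving out each library in turn, which leaves an arm with 1 library and so loosens the rule, gave 7 to 15 KO-only and 6 to 11 control-only at day 3, 1 to 7 and 0 to 11 at day 5, 0 to 0 and 0 to 1 at day 10, 3 to 14 day 3-only and 2 to 19 day 5-only in the control, and 10 to 11 and 4 to 16 in the KO. Summit numbers of KO minus control ranged from -0.167 to 0.833 for Sox3 and for Foxd3, negative without KO replicate 2 of day 3. They ranged from -2.83 to -1 for Dnmt3a, -1 to -0.5 for Dnmt3b, 0 to 1 for Fgf5, and up to 1 for Otx2. For day 3 minus day 5 they ranged from -0.75 to 0.5 for Otx2, -1 to 0.5 for Pou3f1 and -0.75 to 0.75 for Sall2, turning sign without control replicate 1 of day 5; per 10000 summits of full lists, Pou3f1 was at 0.087 and Sall2 at 0.0519. Leaving out control replicate 1 of day 5 also raised N from 14519 to 34040, so the library and the list length cannot be told apart in these changes of sign. The cause was not tested. Between KO and control no member passed under any alternative run, but most members had no day 10 summit and so could not reach the smallest p. Between days none could pass, since the smallest possible p was 0.0556, and the smallest adjusted p was 0.199 (Foxd3, full lists).

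No pairing by replicate number was seen in summit numbers: deviations of same-numbered libraries correlated at -0.0336, -0.0230 and -0.0368 at days 3, 5 and 10. With 2 libraries per group, these values cannot show whether same-numbered libraries were prepared together. With the replicate block (64 and 16 arrangements, smallest possible p 0.03125 and 0.125) 0 genes passed between KO and control. The adjustment would have needed a large share of all genes at 0.03125, so nothing is concluded from this. Between days none could pass. Without read counts, a missing summit cannot be told apart from too few reads.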
